A study of Mus musculus with 4 samples.

Results

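The apolipoprotein genes described here are Apoa1, Apoa2, Apoa4, Apoa5, Apob, Apoc3, Apoe, Apoh and Apom, together with Mttp, whose product loads lipid onto apolipoprotein B. They are 10 of the 21924 protein-coding genes of the GENCODE vM21 annotation of the mouse genome (mm10) and are set by name, by a rule that uses no measured value. For each gene, the counts of all called peaks that overlap the gene body or the 2 kb upstream of it (its window) were summed over barcodes with at least 1000 counts, given in counts-per-million (CPM) of the library's counts in peaks, and set beside the peak length they cover and beside the peaks at the gene start.

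Nuclei of mouse hepatocytes, freed from the liver by collagenase perfusion, were profiled by scATAC-Seq, which counts the places where a transposase cuts open chromatin in single nuclei. There are 4 libraries with 1 library per time point. The 0 h library is from undamaged liver, and the others were made 48 h, 72 h and 96 h after PHx (partial hepatectomy), an operation that takes out some lobes of the liver and sets the hepatocytes left behind dividing until the organ has regrown. All mice had a normal diet and an age of 10 to 12 weeks per the labels, and the methods name male C57BL/6J mice and 1 hepatocyte preparation behind each of the 0 h and 48 h libraries. No time point has a second library, so differences over time carry counting error only and have no test, and time cannot be told apart from the mouse, the preparation or the library.

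Apolipoproteins are the protein part of the particles that carry lipid in blood, and most of them are made by hepatocytes. Apob is the structural protein of VLDL and LDL, and is loaded with triglyceride in the endoplasmic reticulum by the transfer protein that Mttp encodes. Apoa1 and Apoa2 are the main proteins of HDL, Apom carries sphingosine-1-phosphate on HDL, Apoc3 and Apoa5 restrain and promote triglyceride breakdown by lipoprotein lipase, and Apoe is the ligand by which the liver takes up remnant particles. Accessibility is not expression: open chromatin over these genes marks DNA that factors can reach, and no RNA was measured in these libraries.

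The promoters of the 5 genes that the comparisons below turn on are shown so that the start sites and the few matched letters can be seen. They run from 250 bases before to 50 bases after the RefSeq gene start (GRCm38.p6, the sequence of mm10), 5′ to 3′ on the gene's own strand, at chr9:46228380-46228679 (+) for Apoa1, chr1:171224804-171225103 (+) for Apoa2, chr9:46268383-46268682 (+) for Apoa5, chr12:7977427-7977726 (+) for Apob and chr7:19699139-19699438 (-) for Apoe. Capitals mark matches, on either strand, to the motifs named in the next paragraph.
Apoa1: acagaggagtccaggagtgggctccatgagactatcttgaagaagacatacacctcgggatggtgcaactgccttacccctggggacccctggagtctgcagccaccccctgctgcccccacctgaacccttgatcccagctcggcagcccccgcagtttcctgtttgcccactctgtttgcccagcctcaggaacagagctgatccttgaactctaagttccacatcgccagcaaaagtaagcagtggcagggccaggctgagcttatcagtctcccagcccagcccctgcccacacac
Apoa2: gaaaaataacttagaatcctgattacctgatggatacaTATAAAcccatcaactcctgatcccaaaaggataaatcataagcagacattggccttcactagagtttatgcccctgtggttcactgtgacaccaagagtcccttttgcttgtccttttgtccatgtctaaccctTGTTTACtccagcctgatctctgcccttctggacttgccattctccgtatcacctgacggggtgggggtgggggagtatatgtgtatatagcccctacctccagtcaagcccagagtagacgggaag
Apoa5: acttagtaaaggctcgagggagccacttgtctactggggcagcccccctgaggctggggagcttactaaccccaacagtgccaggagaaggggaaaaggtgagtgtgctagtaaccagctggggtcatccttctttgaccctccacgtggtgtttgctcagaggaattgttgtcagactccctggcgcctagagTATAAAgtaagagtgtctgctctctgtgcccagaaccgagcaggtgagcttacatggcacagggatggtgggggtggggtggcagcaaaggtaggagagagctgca
Apob: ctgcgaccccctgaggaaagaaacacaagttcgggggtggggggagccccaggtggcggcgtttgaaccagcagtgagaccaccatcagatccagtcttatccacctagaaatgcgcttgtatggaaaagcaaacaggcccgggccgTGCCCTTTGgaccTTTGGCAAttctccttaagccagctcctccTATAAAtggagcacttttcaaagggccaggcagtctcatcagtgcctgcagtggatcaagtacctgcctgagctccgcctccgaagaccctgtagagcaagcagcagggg
Apoe: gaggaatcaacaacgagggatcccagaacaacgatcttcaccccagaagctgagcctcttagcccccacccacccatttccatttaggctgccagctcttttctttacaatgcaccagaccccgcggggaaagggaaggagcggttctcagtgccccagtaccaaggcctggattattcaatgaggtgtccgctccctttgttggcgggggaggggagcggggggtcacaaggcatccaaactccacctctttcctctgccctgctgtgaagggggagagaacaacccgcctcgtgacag

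RefSeq gave a promoter for 9 of the 10 genes, all but Apoc3. In them 8 motifs were searched on both strands, and no printed match overlaps another. The Apob promoter held 3 of them: the HNF4A core CAAAGNNCA at −103 to −95, the C/EBP motif TTGCNNAA at −90 to −83, both on the reverse strand, and TATAAA at −60 to −55 from the start. Apoa5 held TATAAA at −56 to −51, and Apoa2 held it at −212 to −207 together with the FOXA motif TGTTTAC at −77 to −71. The HNF4A core was in 3 of the 9 promoters (Apoa4, Apob and Apoh) and in 6.36% of 32851 RefSeq promoters of the same length, the C/EBP motif in 1 of 9 (Apob) and 10.8%, FOXA in 2 of 9 (Apoa2 and Apoh) and 3.65%, and TATAAA in 3 of 9 and 13.6%. The HNF1 motif GTTAATNAT, the NR5A2 motif CAAGGTCA, the AP-1 motif TGANTCA and the STAT motif TTCNNNGAA were in none of the 9 and in 0.801%, 1.56%, 7.81% and 8.3% of all promoters. These are matches of letters in short windows and show no binding.

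Depth fell with time. The kept barcodes numbered 3977, 3892, 4256 and 3224 at 0, 48, 72 and 96 h, with medians of 26005, 11629, 4841 and 3681.5 counts each, and peaks, called in each library on its own, covered 153.6, 179, 141.2 and 60.9 Mb. Pairs of libraries shared 681 to 882 deposited barcode sequences, of which 27 to 60 were kept in both. At 0 h the 1066 shared barcodes had a median of 65184 counts, against 435 to 494 in the later libraries. Without all of them the median log2 ratios of the 10 genes to 0 h given below were −0.55, −0.92 and −0.90 in place of −0.56, −0.95 and −0.92. All 9 hepatocyte markers matched were detected in every library, with a summed level of 2411 to 3742 CPM. Endothelial markers summed to 228.7 to 454.1 CPM with Cdh5 at 0 at 0 h and 96 h, Kupffer and myeloid markers to 70.74 to 149.8 CPM with Vsig4 and Cd5l at 0 throughout, stellate markers to 76.07 to 164.4 CPM, cholangiocyte markers to 126.8 to 157.3 CPM, and lymphoid markers to 0 to 47.02 CPM. The part of these levels in the differences between time points was not tested.

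The genes lie at 7 places on 7 chromosomes, and several of them share peaks. On chromosome 9, Apoa1 (46228580-46230466), Apoc3 (46232933-46235636), Apoa4 (46240696-46243459) and Apoa5 (46268633-46271919) form 1 cluster. At 0, 48 and 72 h a single peak held the windows of both Apoa1 and Apoc3, so their values are one measurement there. The 10 genes thus gave 9 distinct values at those times. That peak also overlapped the window of Sik3, as did a peak of the Apoa1 window at 96 h. Other peaks overlapped neighbours in many cases: Nr1i3, Tomm40l and Fcer1g at Apoa2, Zpr1 and Bud13 at Apoa5, Apoc1 and Tomm40 at Apoe, and Trmt10a at Mttp. At 0 h Apob and Apoa4 had only peaks that no other protein-coding window touches.

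At 0 h 6 of the 10 genes were above the median gene in level per length of peak and 4 were below it. The Apoa1 and Apoc3 peak reached 17.27 CPM per kb (95% Poisson interval 17.03 to 17.52), above 98.55% of the 16818 genes with a peak, whose median was 6.737. Apob followed with 15.56 (15.42 to 15.7), then Apoe with 13.81 (13.65 to 13.97) and Apoa2 with 13.63 (13.37 to 13.88), which overlap, and Apoa5 with 11.55. Apoa4 (5.97), Apom (5.843), Apoh (5.435) and Mttp (5.334) lay below the median gene, and Apoa4 could not be told from Apom nor Apoh from Mttp within counting error. In all, the peaks over the 10 genes, each counted once, held 0.2249% of the counts on 0.1331% of the peak length at 0 h. Their sum was 2249 CPM at 0 h, 1995 at 48 h, 1468 at 72 h and 1898 at 96 h, lowest at 72 h.

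The structural gene of VLDL was the only one of the 10 above 0 h by CPM of its window at 96 h, and at 48 h it was above 0 h together with Apoa2. Apob (chr12:7977648-8016835) measured 727.4 CPM at 0 h, 879.6 at 48 h, 675.6 at 72 h and 997.2 at 96 h. The CPM of Apob was thus higher after PHx in the first and the last of the later libraries and slightly lower at 72 h. The log2 ratios were 0.27 (0.25 to 0.30), 0.45 (0.42 to 0.49) and −0.11 (−0.14 to −0.07), where the ratio is of CPM plus a pseudocount of 1 and the interval covers counting error only. One peak of 46.57 to 47.02 kb covered the whole gene in the 3 earlier libraries, so that length hardly entered. Per kb the values were 15.56, 18.71, 14.51 and 22.73 CPM, in the same order. Apob ranked above 99.63% to 99.89% of genes with a peak by CPM in each library. By CPM per kb it ranked above 97.37%, 99.73%, 94.73% and 81.1% of them at 0, 48, 72 and 96 h, lowest at 96 h. The median gene was at 6.737 CPM per kb at 0 h and 16.14 at 96 h. Between these libraries Apob thus rose per kb while its rank among genes fell.

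Mttp (chr3:138089854-138144968), the lipid transfer partner of Apob, measured 249.2, 210, 237 and 196.4 CPM at 0, 48, 72 and 96 h. Its log2 ratios of CPM were −0.25, −0.07 and −0.34, inside 2-fold. The covered length fell from 46.72 kb at 0 h to 14 kb in 17 peaks at 96 h, and per kb the log2 ratios were −0.21, 0.15 and 1.40, the last in the opposite direction and past 2-fold. The peak over its RefSeq start, 1550 bp inside the GENCODE start, held 46.91, 38.35, 39.64 and 59.79 CPM. That start peak, which also overlaps the window of Trmt10a, was thus highest in CPM at 96 h, where the whole window was lowest.

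The windows of the HDL and triglyceride genes of the chromosome 9 cluster held lower CPM at every later time. Apoa1 measured 283 CPM (279.1–287.1) at 0 h, 190 (185.2–194.9) at 48 h, 128.6 (122.3–135.1) at 72 h and 136.9 (128.6–145.5) at 96 h. No later interval overlaps that of 0 h, while those of 72 h and 96 h overlap each other, and the log2 ratios were −0.57, −1.13 and −1.04. Apoc3 had the same values to 72 h and 127.9 CPM at 96 h, a log2 ratio of −1.14. The peaks at the gene starts alone held less at 96 h. Apoa1 had 99.7 CPM in 4838 bp (−1.50) and Apoc3 28.19 CPM in 2304 bp (−3.28). Per kb these were 20.61 and 12.23 CPM, against 17.27 at 0 h. Apoa5 measured 209.9, 138.1, 56.42 and 94.94 CPM, with log2 ratios of −0.60, −1.88 and −1.14. Over its window Apoa5 was lowest at 72 h, and higher again at 96 h beyond the counting interval. The peak at its start was the window's only peak to 72 h. At 96 h that start peak was 1390 bp long and held 21.09 CPM, its lowest, a log2 ratio of −3.26. Per kb it held 15.17 CPM at 96 h against 11.55 at 0 h. Apoa4, which in adults is made mostly by the intestine and also by mouse liver, was low throughout, with 18.4, 16.13, 12.09 and 17.07 CPM, and its 96 h ratio of −0.10 (−0.38 to 0.16) could not be told from 0. Per kb it was at −0.27, 0.20 and 1.06.

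Part of these differences went with peak length, which was called library by library. The Apoa1 and Apoc3 peak spanned 16.39 kb at 0 h, 17.79 kb at 48 h and 13.52 kb at 72 h, and at 96 h it was 3 peaks, 2 of which overlap the Apoa1 window with 8.812 kb. At 48 h and 72 h the level per kb was also lower, with 10.68 and 9.511 CPM per kb against 17.27 (log2 ratio −0.69 and −0.86), while the median gene changed by −0.22 and 0.17 on that scale. At 96 h the per-kb direction turned for some of them: Apoa1 was at −0.15, Apoc3 at 0.05 and Apoa5 at 0.60, while the median over all genes was 1.255. The Apoa5 peak broke up in the same way, from 18.18 kb at 0 h and 17.86 kb at 48 h to 6.45 kb in its window at 72 h, with per-kb log2 ratios of −0.58 and −0.40 at 48 h and 72 h. To lessen the effect of how a peak was split, all peaks of a library within the region that the 4 libraries' peaks together span were also summed. Bases of the region outside a called peak still enter as 0, so this sum moves with the covered length too. Over such whole regions Apoa1 and Apoc3 (chr9:46218669-46236620) measured 285.3, 190, 129.7 and 165 CPM, and Apoa5 (chr9:46267089-46285267) 209.9, 138.1, 75.96 and 110.8 CPM. The log2 ratios were −0.58, −1.13 and −0.79 and −0.60, −1.45 and −0.92. Called peaks covered 96.08%, 99.12%, 77.48% and 61.92% of the Apoa1 region and 100%, 98.24%, 56.15% and 34.74% of the Apoa5 region, so only 0 h and 48 h were compared over nearly the same bases. Per kb of covered length the Apoa1 region held 16.54, 10.68, 9.325 and 14.85 CPM and the Apoa5 region 11.55, 7.733, 7.442 and 17.54 CPM, the latter highest at 96 h.

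**Figure D1:**
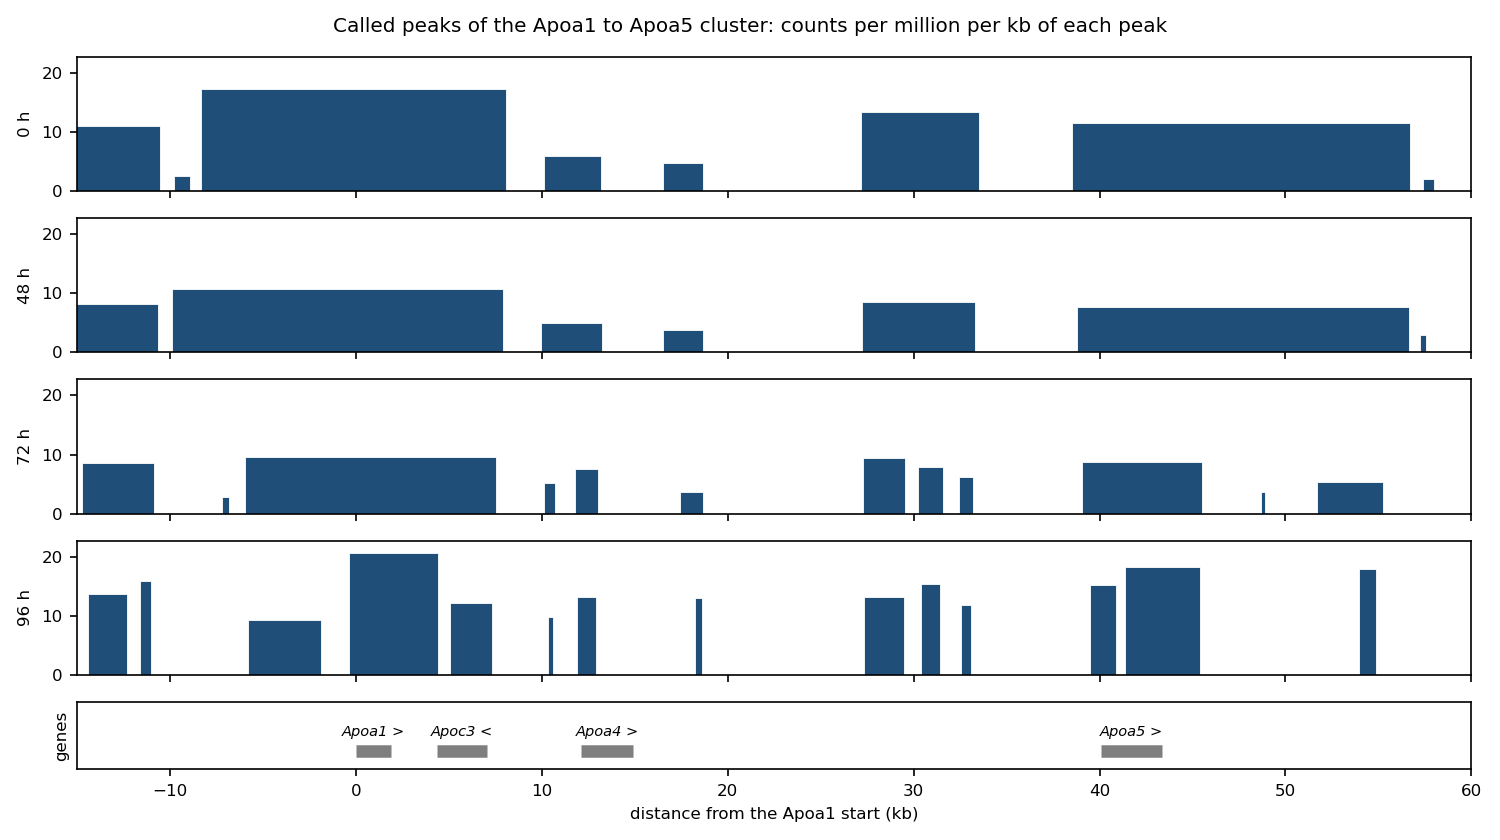
Called peaks from 15 kb before to 60 kb after the Apoa1 start in each library. Each bar is 1 peak, its width the peak in kb from the Apoa1 start, its height CPM per kb, and grey boxes are the 4 genes. The Apoa1 and Apoc3 peak falls from 17.27 at 0 h to 10.68 at 48 h and 9.511 at 72 h at similar width, and at 96 h the broad peaks are narrower and in pieces.

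Apoe (chr7:19696109-19699188) measured 430.9 CPM (426–435.8) at 0 h, 278.1 (272.2–284) at 48 h, 165.5 (158.4–172.8) at 72 h and 192 (182.2–202.2) at 96 h. The 4 intervals do not overlap, and the log2 ratios were −0.63, −1.38 and −1.16. At 0 h its only peak was 31.2 kb long and also covered Apoc1, Apoc2 and Apoc4, and at 48 h it was 21.12 kb long. Over the whole region (chr7:19673038-19704798), which held 1, 2, 5 and 10 peaks, the levels were 430.9, 349.5, 201 and 295.3 CPM, log2 ratios of −0.30, −1.10 and −0.54. Called peaks covered 98.24%, 97.93%, 79.81% and 60.88% of it, so the 48 h value is over nearly the same bases and the later ones are not. Per kb of covered length the region held 13.81, 11.24, 7.929 and 15.27 CPM. Per kb the window itself was at −0.07, −0.60 and 0.51, so its difference was nearly absent at 48 h and turned at 96 h.

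Apoa2 (chr1:171225054-171226379) measured 163.3, 177.3, 110.1 and 153.6 CPM, log2 ratios of 0.12, −0.56 and −0.09. It was above 0 h at 48 h in its window, where its peak had grown from 11.98 to 18.41 kb, and below 0 h by whole region, with 200.1, 177.3, 135.3 and 186.4 CPM and a 48 h ratio of −0.17. Per kb of peak its ratios were −0.50, −0.44 and 0.19. Its direction at 48 h and at 96 h thus depended on the measure, and the lowest library was 72 h by CPM and 48 h per kb.

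Apom (chr17:35128997-35132050) measured 36.49, 16.42, 6.876 and 7.432 CPM, the lowest log2 ratios among the 10 at −1.11, −2.25 and −2.15. At 0 h, 56.2% of its counts lay in a peak shared with D17H6S53E that the later windows lack. The peak at its start alone held 15.98, 16.42, 6.876 and 7.432 CPM, which gives log2 ratios of 0.04, −1.11 and −1.01. This peak was 2256, 2860, 1274 and 1117 bp long and held 7.085, 5.741, 5.397 and 6.653 CPM per kb. Its CPM at 48 h was thus not lower than at 0 h while its level per kb was. By whole regions the ratios were −0.19, −1.16 and −1.10, with called peaks over 89.74%, 84.42%, 45.02% and 24.43% of them, and per kb of the window −0.03, −0.11 and 0.19.

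Apoh (chr11:108343354-108414396), whose plasma protein binds anionic phospholipids, measured 129.9, 89.1, 75.59 and 74.05 CPM over 13, 14, 11 and 8 peaks. The ratios were −0.54, −0.77 and −0.80, with the intervals of 72 h and 96 h overlapping. Covered length fell from 23.91 to 16.27, 9.554 and 5.276 kb, and per kb the log2 ratios were 0.01, 0.54 and 1.37, the opposite direction. By whole regions they were −0.54, −0.49 and −0.63. Its GENCODE start lies 51943 bp upstream of its RefSeq start and shares its peak with Prkca, a kinase gene. The peak at the RefSeq start held 26.2, 18.55, 17.19 and 11.38 CPM, and the peaks near the GENCODE start 23.56, 20.76, 29.24 and 34.95 CPM. Only the former was lower at all later times.

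**Figure D2:**
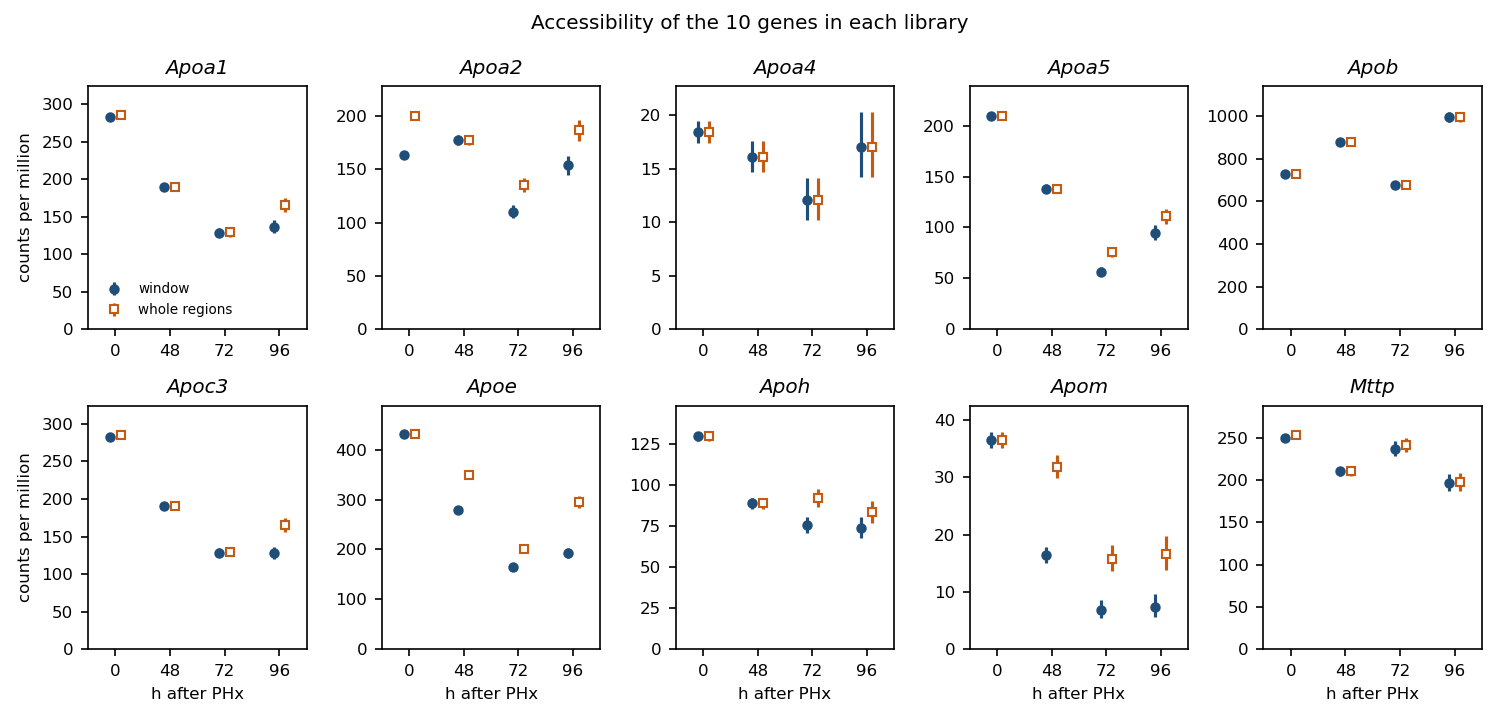
Level of each gene in CPM against hours after PHx, by peaks touching the window (filled circles) and by whole regions (open squares), with exact 95% Poisson intervals. Apoa1, Apoc3, Apoa5 and Apoe are highest at 0 h and lowest at 72 h by whole regions, while Apob is highest at 96 h.

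These counts of genes past 2-fold are of CPM summed over called peaks and move with covered length, whose median log2 ratio was −0.01, −0.53 and −1.44 over the 10 genes and 0.15, −0.15 and −1.09 over all genes. At 48 h 1 of the 10 genes (Apom) was at least 2-fold lower than at 0 h, against 1.92% of 15292 genes with a mean of at least 5 CPM, and 0 were at least 2-fold higher, against 4.85%. At 72 h 5 were at least 2-fold lower (Apoa1, Apoc3, Apoa5, Apoe and Apom), against 5.92% of 15501 genes, and 0 higher, against 10.2%. Apoa1 and Apoc3 were the same peak there, so 1 measurement is counted as 2 of these genes. At 96 h the same 5 were lower, against 8.35% of 15047 genes, and 0 higher, against 4.67%. There 72.8% of the Apoa1 counts were in a peak shared with Apoc3. By whole regions the numbers lower were 0, 5 and 1 of 10, against 0.595%, 2.63% and 3.51% of all genes. These were the 5 named at 72 h, with Apoa1 and Apoc3 as 1 region, and Apom at 96 h. All 10 passed the filter on low values, and the median log2 ratio of the 10 was −0.56, −0.95 and −0.92, against −0.04, −0.02 and 0.08 for all genes.

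**Figure D3:**
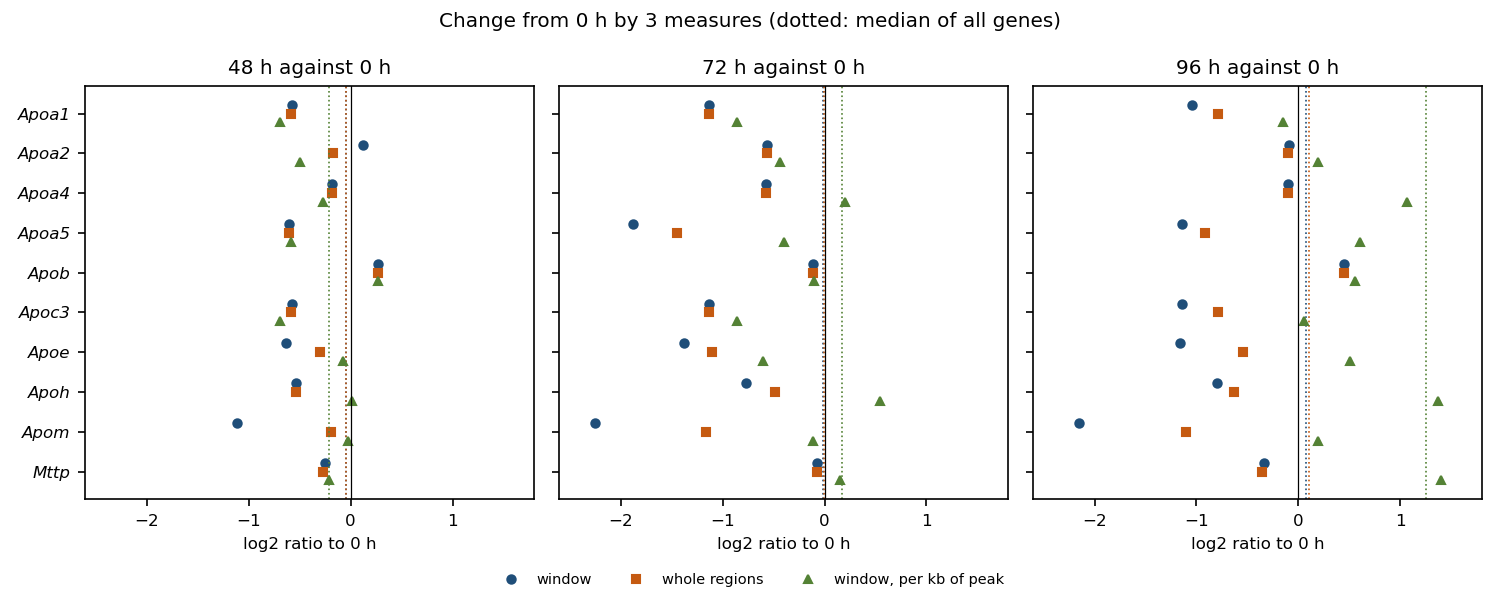
Log2 ratio to 0 h of each gene at 48, 72 and 96 h by window (circles), by whole regions (squares) and by window per kb of peak (triangles); dotted lines are the medians of all genes on each measure. The circles of Apoa1, Apoc3, Apoa5, Apoe and Apom are at or below −1.04 at 72 h and 96 h, and those of Apob are at 0.27, −0.11 and 0.45.

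Whether these genes were lower depended on the measure at 96 h more than at 72 h. Per kb of peak, the median of the 10 was −0.24, −0.26 and 0.53, against −0.22, 0.17 and 1.255 for all genes, so at 96 h it was positive and below that of all genes. In regions with 1 peak of near-equal length in both libraries, with the CPM taken over such regions alone, the 5 genes that had one at 48 h were at −0.48 (Apoa5), −0.21 (Apoh), −0.17 (Mttp), −0.07 (Apoa4, −0.22 to 0.08) and 0.40 (Apob). The 4 genes with such a region at 72 h were at −0.68 (Apoa2), −0.22 (Apob), −0.19 (Apoh) and 0.10 (Mttp), and the 1 gene at 96 h, Apoa2, was at −0.93. For Apoa2, Apoa5 and Apob these regions held the same peaks and counts as their windows, so the distance from the window ratios, such as −0.09 for Apoa2 at 96 h, came from the other total used for scaling. Scoring each peak in each barcode as open or not turned the medians positive, at 0.34, 0.47 and 0.54. On that scale a peak counts at most once in a nucleus, and nuclei at 0 h had the most counts. When every kept nucleus was thinned to 1000 counts, the share with a count at Apoa1 was 21.89%, 15.07%, 9.681% and 10.13% (unthinned 78.85%, 57.99%, 27.11% and 23.85%), in the same order as the CPM. The thinned share at Apoe was 31.38%, 21.23%, 12.84% and 14.76% (unthinned 85.32%, 66.93%, 32.73% and 32.35%), and at Apob 46.36%, 49.16%, 38.87% and 50.59% (unthinned 87.63%, 83.86%, 67.03% and 72.3%).

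In lists of other lipoprotein genes, 0 members were at least 2-fold higher than 0 h at any time, against 4.85%, 10.2% and 4.67% of all genes at 48, 72 and 96 h, and those at least 2-fold lower, against 1.92%, 5.92% and 8.35%, included the neighbours of Apoe. Of 5 other apolipoprotein genes with enough counts of the 6 listed, 2, 3 and 3 were at least 2-fold lower at 48, 72 and 96 h. These were Apoc2 (473.9, 103.1, 23.94 and 33.88 CPM), an activator of lipoprotein lipase, Apoc4 (430.9, 71.47, 30.37 and 38.63 CPM) and, from 72 h, Apoc1 (430.9, 278.1, 165.5 and 163.2 CPM). All 3 share the 0 h Apoe peak, and by whole region Apoc2 was at −0.30, −1.08 and −0.55, so the fall of its window to a log2 ratio of −4.25 at 72 h went with the splitting of that peak. Of 12 genes of particle assembly and secretion, 1, 3 and 3 were lower. Sar1b, a GTPase of the vesicles that carry nascent particles, measured 431.9, 112.6, 57.03 and 66.69 CPM, with −0.84, −1.52 and −1.38 by whole region. P4hb, the subunit that pairs with the Mttp protein, measured 182.4, 129.8, 59.21 and 35.08 CPM, with −0.49, −0.89 and −1.31 by whole region. In peaks of no other window Sar1b was at −1.38, −0.42 and 0.27 at 48, 72 and 96 h, past 2-fold at 48 h only and turned at 96 h, and P4hb was at 0.34 and −0.40 at 72 h and 96 h, turned at 72 h. Per kb of peak Sar1b was at 0.72 and P4hb at 0.78 at 96 h. Mia2 was past 2-fold in its window at 72 h (−1.02) but not by whole region (−0.79), and per kb it was at 0.44. A1cf, a cofactor of Apob mRNA editing, was past 2-fold at 96 h (−1.48) and at 1.29 per kb.

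Of 8 genes of remodelling in plasma, 0, 2 and 3 were at least 2-fold lower. Angptl4, which inhibits lipoprotein lipase, measured 100.9, 71.74, 41.62 and 33.28 CPM. Angptl8, of the same family, measured 157, 121.8, 76.56 and 75.79 CPM but only −0.46 and −0.32 at 72 h and 96 h by whole region, and Lipc, hepatic lipase, was past 2-fold at 96 h (−1.23). Per kb of peak these 3 genes were above 0 h at 96 h, Lipc past 2-fold at 1.55, Angptl4 at 0.30 and Angptl8 at 0.07, and Angptl4 was at 0.01 in regions of near-equal length at 72 h. Of 5 genes of uptake 0 was past 2-fold at any time, with medians of 0.28, 0.05 and −0.03. Of 8 regulators, 0, 2 and 1 were lower: Ppara, a nuclear receptor of fatty acid metabolism, with 702.9, 451.7, 287.6 and 269 CPM, and Cebpa, a factor of the mature hepatocyte, with 266.6, 171.2, 107.6 and 156.7 CPM. By whole region Ppara was at −0.63, −1.15 and −0.93 and Cebpa at −0.64, −0.95 and −0.46, both nearer to 0 at 96 h than at 72 h. Per kb of peak both were above 0 h and below the median of all genes at 96 h, at 0.74 and 0.10.

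Within each library, nuclei were clustered on peaks at least 100 kb from the 10 genes, and clusters whose median hepatocyte marker was over 0.5 lower in log2 than in the whole library were called hepatocyte-low, a limit set after the clusters were seen. The hepatocyte-like nuclei numbered 2676, 3675, 3869 and 3224, the hepatocyte-low nuclei 315, 217, 387 and 0, and 986 nuclei at 0 h stayed unnamed for low depth. The hepatocyte-low nuclei were shallow (medians of 3643, 2053 and 1940 counts against 38927.5, 12451 and 5118), and 9, 9 and 10 of 10 endothelial markers were higher in them at 0, 48 and 72 h, as were 3, 5 and 8 of 10 Kupffer and myeloid markers, of which 7, 4 and 2 were at 0 in both classes. The endothelial levels summed to 581.5, 962.5 and 847.5 CPM in hepatocyte-low against 391.1, 398.2 and 433.4 CPM in hepatocyte-like nuclei, while the median cholangiocyte marker was lower in each hepatocyte-low cluster, by −0.513 to −0.121 in log2. The median stellate marker was at 0.407 in the hepatocyte-low cluster of 48 h and at 0 in those of 0 h and 72 h. The classes are a description and were not tested.

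In these classes 10, 10 and 9 of the 10 genes had a higher level in hepatocyte-like nuclei at 0, 48 and 72 h, against 32.5%, 36.4% and 38.7% of all genes with a mean of at least 5 CPM, with median folds of 1.6, 2.16 and 1.37. With counting intervals that do not overlap, the numbers were 7, 6 and 4 of 10, against 14.9%, 10.4% and 5.32%. Apoa1 and Apoc3 are 1 measurement at these times and are counted as 2 genes. The intervals met for Apoa2, Apoa4 and Apom at 0 h, for Apoa4, Apoe, Apoh and Apom at 48 h, and for Apoa2, Apoa4, Apoa5, Apoe, Apoh and Apom at 72 h. Apob differed most in each library, with 734.7 against 285.6 CPM at 0 h, 889.2 against 134.4 at 48 h and 691.3 against 378.9 at 72 h. Thinned to 1000 counts, 50.75% of hepatocyte-like and 5.53% of hepatocyte-low nuclei had an Apob count at 0 h (unthinned 99.7% and 13.65%). Apoe measured 434.6 against 306.5, 278.7 against 228.3 and 165.8 against 160 CPM, with intervals apart at 0 h only, and at 0 h the folds of Mttp (1.32), Apom (1.05) and Apoa2 were below that of Apoe (1.42). Apom rested on only 4 and 6 counts in hepatocyte-low nuclei at 48 h and 72 h. The differences over time were the same size in hepatocyte-like nuclei alone, with medians of −0.57, −0.96 and −0.94.

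**Figure D4:**
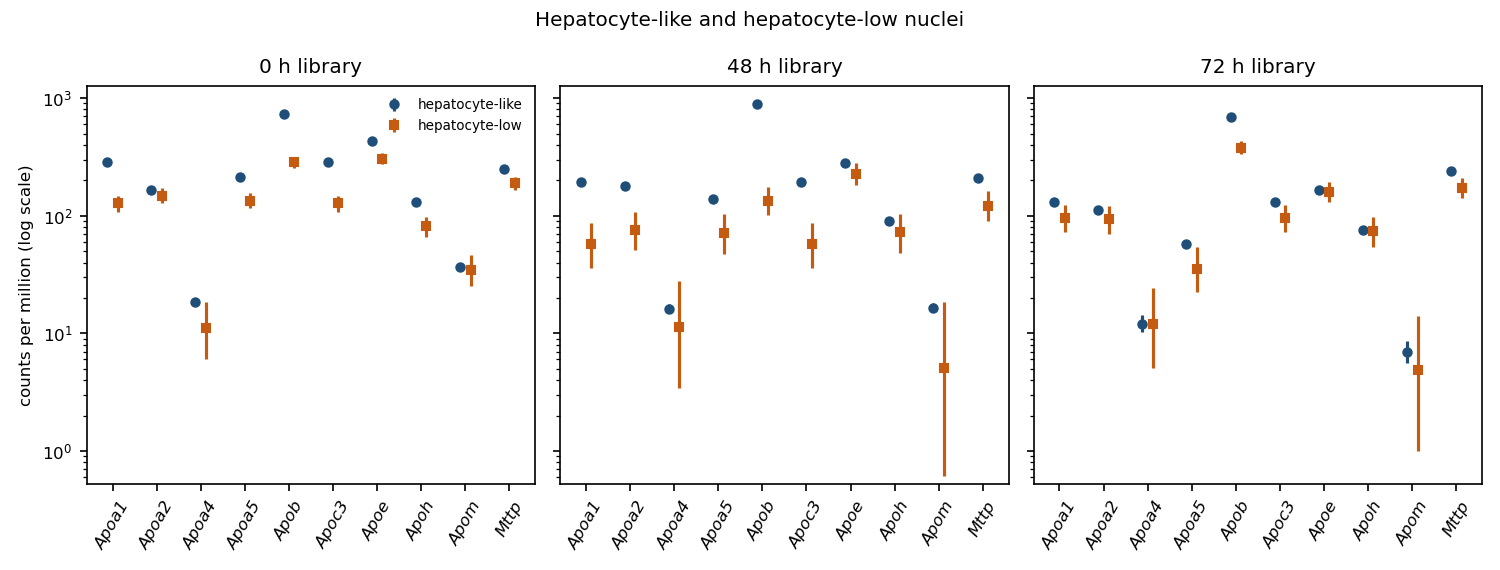
Level of each gene in hepatocyte-like (circles) and hepatocyte-low nuclei (squares) of the 0, 48 and 72 h libraries, in CPM on a log axis with exact 95% Poisson intervals. Apob shows the widest gap in each panel, and the intervals of Apoa2, Apoa4, Apoa5, Apoe, Apoh and Apom meet in the 72 h panel.

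Hepatocytes near the portal vein and near the central vein of the liver lobule do different metabolic work, and a comparison of the ends of that axis can be replicated over the 4 libraries. Hepatocyte-like nuclei of each library were ranked by 12 pericentral against 12 periportal marker genes and split into 3 equal parts. The part with the highest score is called pericentral here and that with the lowest periportal, with 892, 1225, 1289 and 1074 nuclei in each at 0, 48, 72 and 96 h. Peaks are the same for both within a library, so peak length does not enter. Summed counts were compared by edgeR with the library as a block, and the libraries are 4 time points, so their spread holds time as well. Median counts differed, at 32141 periportal and 48131 pericentral at 0 h but 3553 and 3406 at 96 h, and the part of that depth in the differences was not tested.

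Apoa2 was called higher in pericentral nuclei and Apoa5 in periportal nuclei, the latter with a call that depended on the libraries used. Apoa2 measured 187 pericentral against 139.3 periportal CPM at 0 h, 207.3 against 156.2 at 48 h, 129.2 against 92.38 at 72 h and 166.7 against 143.4 at 96 h. It was higher in pericentral nuclei in 4 of 4 libraries, by 0.35 ± 0.06 (SE) in log2 (edgeR, adjusted p = 3.92e-04), and its adjusted p stayed between 5.42e-04 and 0.00503 when each library was left out. The Apoa2 peak also covers Nr1i3, a nuclear receptor gene, and the counts do not separate the genes. Apoa5 measured 213.2 pericentral against 205.7 periportal CPM at 0 h, 123 against 172.2 at 48 h, 52 against 66.84 at 72 h and 84.4 against 103.6 at 96 h. It was higher in periportal nuclei in 3 of 4 libraries, those after PHx, by 0.29 ± 0.07 in size (log2 difference −0.29, edgeR, adjusted p = 0.0116). That call was lost without the 48 h (0.145), 72 h (0.0556) or 96 h library (0.0589) in edgeR's adjusted p, and was made without the 0 h library (6.22e-05). Whether the difference at Apoa5 changes after PHx was not tested. All Apoa5 counts at 0, 48 and 72 h and 77.8% at 96 h lay in peaks shared with Zpr1, and the counts do not separate the genes.

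The other 8 genes did not pass an adjusted p of 0.05 in edgeR. Apoa4 came to −0.37 ± 0.13 (edgeR, adjusted p = 0.0638) and Apom to −0.29 ± 0.12 (0.126), and both passed when counts were divided by 2, to stand for fragments. Apoa4 also passed without the 48 h library (edgeR, adjusted p = 0.0148), and without the other libraries its adjusted p was 0.123 to 0.203. Mttp was at 0.12 (edgeR, adjusted p = 0.212), on the pericentral side in 4 of 4 libraries, and Apob at −0.11 (0.264), on the periportal side in 3 of 4. Apoa1 (−0.12, 0.219), Apoc3 (−0.10, 0.328), Apoe (0.04, 0.804) and Apoh (−0.04, 0.778) were nearer to 0 or varied in sign among libraries. Thus 1 of the 10 genes was called higher in pericentral nuclei and 1 in periportal nuclei, against 3.47% and 4.99% of the 17262 genes tested. Without the library as a block 0 genes were called in edgeR, with 149 at an unadjusted p under 0.05.

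**Figure D5:**
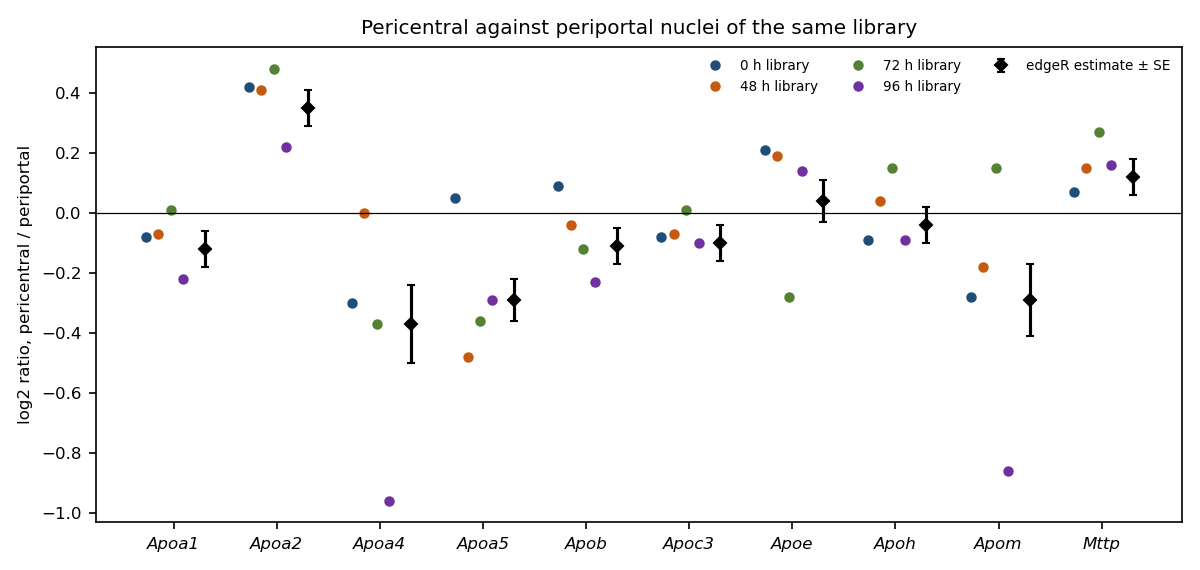
Log2 ratio of pericentral to periportal CPM for each gene in each of the 4 libraries (coloured points), with the edgeR estimate and its SE (black). The Apoa2 points lie at 0.22 to 0.48, all above 0, and the Apoa5 points at −0.48 to 0.05.

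Genes of the lists were also called in edgeR along the same axis. Higher in pericentral nuclei were Dgat1, which makes triglyceride (log2 difference 0.32, adjusted p = 0.00945), Pltp, phospholipid transfer protein (0.37, 9.94e-04), and Ppara (0.31, 0.00547), each in 4 of 4 libraries. Higher in periportal nuclei in 4 of 4 libraries were Sdc1, a proteoglycan that binds remnant particles (−0.50, edgeR adjusted p = 9.24e-07), and Cebpa (−0.37, 1.08e-04). Leaving out 1 library raised the edgeR adjusted p of Ppara to at most 0.123, while Dgat1, Pltp, Sdc1 and Cebpa stayed called. Of the 6 other apolipoprotein genes 0 were called.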

How the data were processed

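Nuclei of hepatocytes from 4 mouse livers or pools were profiled with the 10x single-cell ATAC kit (v1 chemistry). The deposited counts are the authors' raw cut-site counts per peak and barcode, made with Cell Ranger ATAC (version 1.1.0 in the file headers) on mm10, per the submitters' processing notes. Peaks were called in each library on its own, so lengths differ and no peak set is common. Between 87.35% and 88.63% of the counts were even, as both ends of a fragment are counted, so exact Poisson intervals (95%) were computed on count/2. PCR and nuclei add error that these intervals do not cover.

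Barcodes with at least 1000 counts were kept, and no doublets were removed. A peak was assigned to each window it overlaps by at least 1 bp. Log2 ratios are of CPM plus 1, and a gene was called at 2-fold among genes with a mean of at least 5 CPM. Clustering used TF-IDF, truncated SVD (30 components, scikit-learn 1.9.0) and Leiden (resolution 0.5, leidenalg 0.10.2). Zonation used edgeR 4.0.16 (quasi-likelihood, TMM, Benjamini-Hochberg) in R 4.3.3, tested on simulated data; score genes and genes sharing their peaks were left out of the counts of calls. The 10 genes, the lists and the tests were chosen with earlier results of these data known. Of the lists, genes past 2-fold at a time point or called in the zonation test were named, at most 3 at each end; 1 called gene is not reported here. Alternatives included DESeq2 1.42.0.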

Additional observations from a re-analysis of the deposited data

How the results depend on the processing

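No paired analysis of the time points was possible because each time point has 1 library. The median log2 ratio of the 10 genes at 48, 72 and 96 h (−0.556, −0.953 and −0.923) moved to 0.340, 0.467 and 0.543 with binarised counts, −0.239, −0.258 and 0.531 per kb of peak, −0.284, −0.832 and −0.588 with whole merged regions, and −0.180, −0.567 and −0.563 in peaks of no other protein-coding window (5 genes). It moved to −0.232 and −0.688 (48 h, 96 h) with promoter peaks alone, −0.167 and −0.207 (48 h, 72 h) in regions of near-equal length, scaled to their own total, −1.113 and −1.053 (72 h, 96 h) with 10 kb upstream, and −0.480 at 48 h scaled to shared autosomal regions. The near-equal regions kept 5 and 4 genes, whose median as reported was −0.25 and −0.34, so that move was not one of length alone. For the 5 genes with peaks of no other window the median as reported was −0.25, −0.57 and −0.34. In those peaks their median was thus the same at 72 h and lower at 96 h. Whole regions, peaks of no other window and the removal of shared barcodes were chosen after seeing the data. A minimum of 3000 counts per barcode, hepatocyte-like nuclei alone, removal of the deepest 5% and centring moved no median by more than the counting error. The causes were not tested, except that binarised and per-kb values change by construction with depth and length.

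Binarised, Apoa1 and Apoc3 turned to 0.347, Apoa5 to 0.175, Apoe to 0.440 and Mttp to 0.332 at 48 h. Apoa1 and Apoc3 turned to 0.479 at 72 h and to 0.769 and 0.675 at 96 h, Apoe to 0.636 and 1.044, Mttp to 0.528 and 0.410, Apoa2 to 0.455 and 0.910, Apob to 1.626 at 72 h, and Apoa5 to 0.390 at 96 h. Per kb at 96 h Apoa5 turned to 0.599, Apoc3 to 0.052, Apoe to 0.515, Apom to 0.187, Mttp to 1.40, Apoh to 1.37, Apoa4 to 1.06 and Apoa2 to 0.19; Mttp, Apoh and Apoa4 were also above 0 per kb at 72 h, at 0.15, 0.54 and 0.20, and Apoh at 0.01 at 48 h. Apom turned to 0.037 at 48 h with promoter peaks alone or peaks of no other window.

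In the pericentral comparison, 2 of the 10 genes were called. With the replicate block removed (no library block) 0 were called, with counts divided by 2 the number was 4, and leaving out each library gave 1 to 2; DESeq2, a split into 4 parts, no filter, 3000 counts and the removal of shared barcodes each gave 2, Apoa2 and Apoa5. Genes called fell from 1460 to 814 with DESeq2 and to 727 without the 0 h library. Apoe turned to −0.013 without the 0 h and −0.011 without the 48 h library, and Apoh to 0.003 without the 0 h library, within ranges of −0.013 to 0.147 and −0.080 to 0.003. Depth limits Apom and Apoa4 at 72 h and 96 h.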
